A study of Mus musculus with 12 samples.

Results

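The locus described here holds Alb and Afp, neighbouring genes on mouse chromosome 5 that encode albumin and alpha-fetoprotein. Its members are the peaks that overlap chr5:90870000-90960000 (mm9), a stretch of 90 kb set around the genes; its peaks were taken by position and not by their values. They numbered 7 of the 353812 peaks in 11 deposited lists, and 7 of the 11 lists had none. The marks came from whole fetal liver of C57BL/6 embryos at embryonic day 14.5, with 3 libraries for H3K4me1 and 2 each for H3K4me2, H3K4me3 and H3K27ac. Open chromatin came from proerythroblasts of the same strain and day, with 2 ATAC-seq libraries, an assay in which a transposase cuts accessible DNA. No group carried a mutation or a treatment. Nothing in the labels says whether libraries came from separate embryos or pools, or how the proerythroblasts were isolated, and no sorting of the liver is stated, so its marks sum over hepatoblasts, blood cells and others. A deposited list gives peaks but no read counts, so depth is unknown, and a missing peak means only that the caller's threshold was not passed. In such bulk tissue, fewer cells of a type and less mark per cell cannot be told apart.

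Hepatoblasts and hepatocytes secrete both proteins. Albumin is the main carrier protein of plasma, and alpha-fetoprotein is its fetal relative, made by fetal liver and yolk sac and silenced after birth. Both genes read in the same direction, Alb first, and in the mouse they are driven by promoters close to their starts together with an enhancer upstream of Alb and further enhancers between the genes. H3K4me3 marks active promoters, H3K4me1 and H3K4me2 mark promoter flanks and enhancers, and H3K27ac marks both when active. Proerythroblasts are early red cell precursors and are not known to make either protein. The comparison asks which of the liver's marks at a hepatocyte locus lie on chromatin that is open in the red cell lineage.

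The promoter sequences are shown because the peaks of the locus that were called in every library of their mark begin just past both gene starts. They are the 250 bases before each RefSeq start, plus strand, on GRCm38.p6 and not on the mm9 scale of the peaks, at chr5:90460620-90460869 for Alb and chr5:90490464-90490713 for Afp. Capitals mark GTTAAT, one side of the palindromic binding site of HNF1 factors, which are liver transcription factors.
Alb promoter: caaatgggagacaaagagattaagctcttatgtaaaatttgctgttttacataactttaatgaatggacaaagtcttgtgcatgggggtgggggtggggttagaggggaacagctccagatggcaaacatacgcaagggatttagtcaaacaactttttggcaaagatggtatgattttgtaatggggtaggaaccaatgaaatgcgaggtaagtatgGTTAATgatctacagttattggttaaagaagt
Afp promoter: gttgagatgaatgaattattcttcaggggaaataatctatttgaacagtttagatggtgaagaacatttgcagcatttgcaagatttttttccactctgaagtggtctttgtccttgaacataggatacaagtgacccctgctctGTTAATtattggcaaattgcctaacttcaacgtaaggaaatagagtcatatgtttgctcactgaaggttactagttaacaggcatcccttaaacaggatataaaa
Each promoter held 1 match to GTTAAT on either strand, which begins 32 bases before the Alb start and 105 bases before the Afp start, and 6.43% of 32851 RefSeq promoters of that length held at least 1. The full site GTTAATNATTAAC, which contains GTTAAT, was in neither promoter and in 0.00913% of all. CCAAT matched at 2 places in Alb and 1 in Afp (33.8% of promoters), and TATAAA only in Afp among the pair (12.4%). The TATAAA match begins 7 bases before the RefSeq start of Afp. Bases past the RefSeq starts were not searched, so a motif missing here may lie beyond the end of the sequence. Neither AGATAA (9.99%) nor TGATAA (7.94%), forms of the site of the red cell GATA factors, matched in either window. These matches describe letters and were not tested as binding sites.

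H3K4me3 was the mark found at both genes in both of its libraries. Of 29317 windows of 90 kb tiled over the genome, 27.7% held an H3K4me3 peak in replicate 1 and 30.9% in replicate 2. Over Alb, replicate 1 had a peak of 879 bp (90890218 to 90891096) with a fold enrichment (signal relative to the background the peak caller modelled) of 3.38, and replicate 2 had one of 2547 bp (90889997 to 90892543) with 4.21. Over Afp, replicate 1 had a peak of 451 bp (90920303 to 90920753) with a fold enrichment of 3.24, and replicate 2 had one of 887 bp (90920127 to 90921013) with 3.68. All 4 began past the stated gene starts, at 318 and 97 bp for Alb and at 603 and 427 bp for Afp. Both starts are known to about 100 bp, so the Alb peak of replicate 2 may reach the start, while the other peaks lay inside the genes. The peaks of replicate 1 lay wholly within those of replicate 2, which were wider at both genes.

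Joined over the libraries, the Alb region spanned 2547 bp with a fold enrichment of 3.80 ± 0.585 (SD, n = 2), and the Afp region 887 bp with 3.46 ± 0.309 (SD, n = 2). The ranges of the 2 genes overlapped, but Alb was the higher within each library. It had 3.38 against 3.24 for Afp in replicate 1 and 4.21 against 3.68 in replicate 2, a difference that was not tested. The pair stood low among the 13600 consensus H3K4me3 regions of the genome, meaning merged stretches with a peak in both libraries. Alb was at or above 17.1% of them by fold enrichment and Afp at or above 11.3%, against a median over all regions of 7.97. By joined width the genes parted, with Alb at or above 65.9% of all regions and Afp at or above 11.2%. The joined width is that of the replicate 2 peak at both genes. In replicate 1 the Alb peak was at or above 24.1% of its own list by width, and the Afp peak 9.42%. The −log10 q was 1.85 and 3.99 at Alb and 1.60 and 3.03 at Afp, in replicates 1 and 2.

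**Figure D1:**
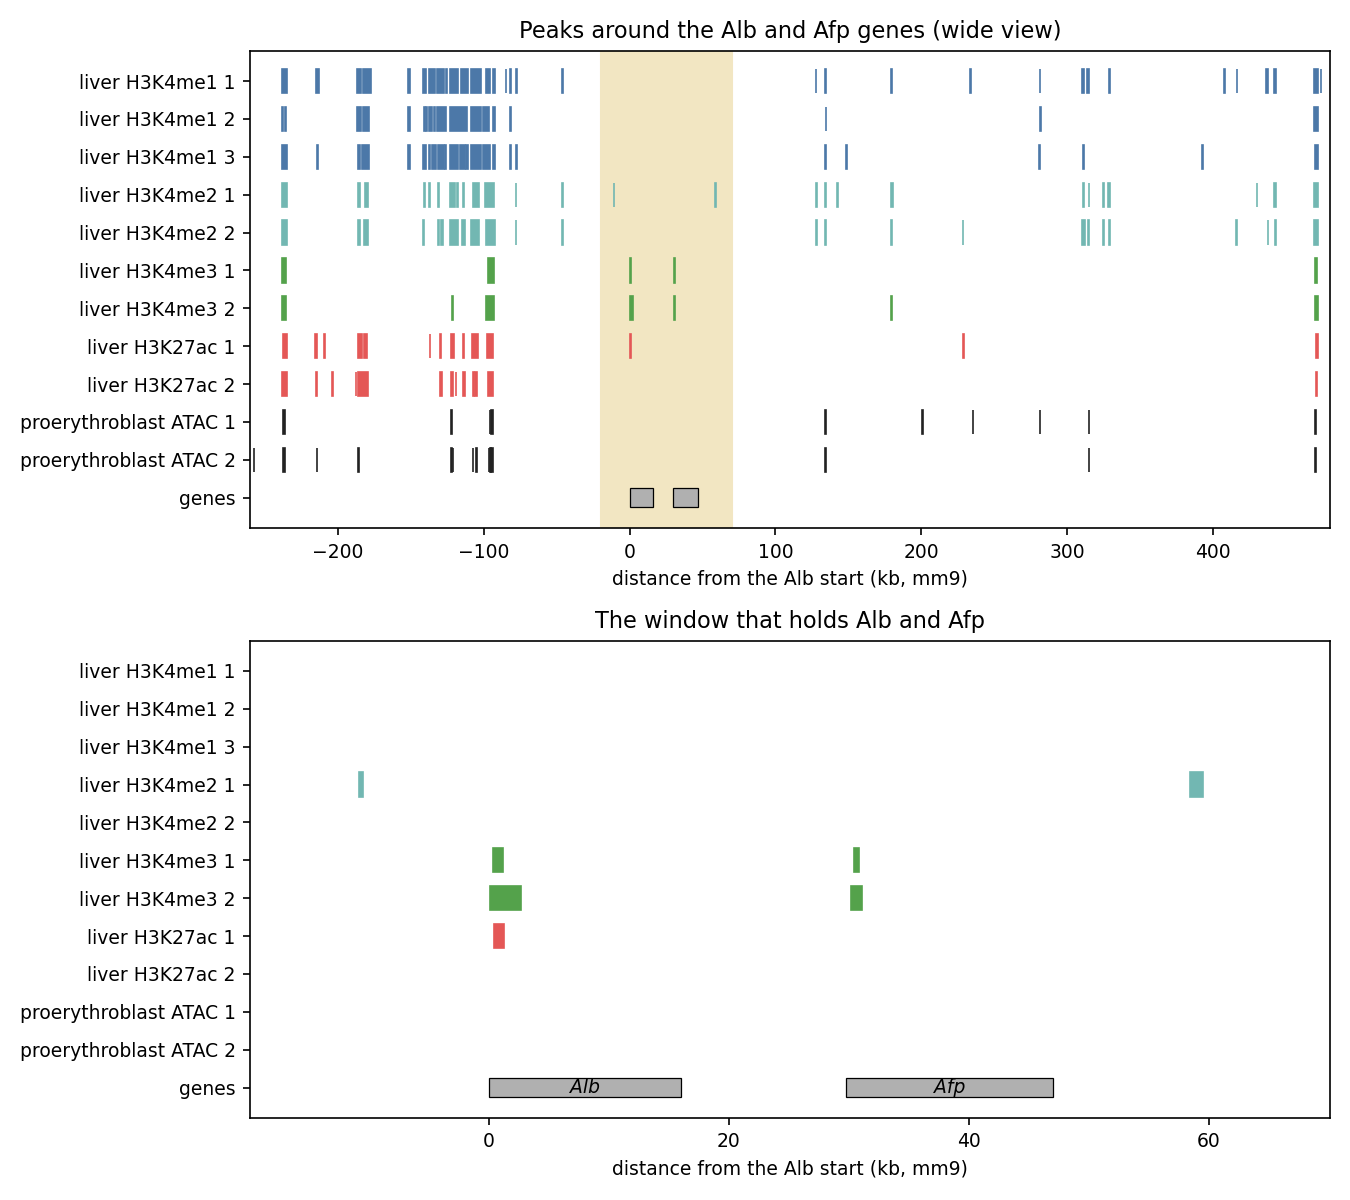
Peaks of each library (rows) by distance from the Alb start in kb, in a wide view with the 90 kb window shaded and in the window alone, with the genes as grey boxes; each bar is 1 peak at its true width, with a thin outline so that narrow peaks stay visible. H3K4me3 peaks stand just past both stated gene starts in both libraries, while the 3 H3K4me1 and 2 ATAC rows are empty across the window.

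H3K27ac was called at Alb in 1 of 2 libraries and at Afp in neither. Over the tiles, 28.7% held a peak in replicate 1 and 26.6% in replicate 2. The replicate 1 peak (90890291 to 90891158, 868 bp) had a fold enrichment of 2.70, at or above 35.1% of its list, and a −log10 q of 1.48 where the list stops at 1.01. It lay entirely within the H3K4me3 peak of replicate 2 and shared 806 bp with that of replicate 1. In H3K27ac replicate 2 the peak nearest to the Alb start was 93.4 kb upstream. Over the genome, 71.9% of consensus H3K4me3 regions met an H3K27ac peak of replicate 1 and 68.8% one of replicate 2. In all, 72.5% met one of either library, a share of 40.8% in the lowest 25% of H3K4me3 fold enrichment, where both genes fall.

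H3K4me2 was called in replicate 1 alone and at neither gene. Tiles with a peak were 45.5% in replicate 1 and 43.4% in replicate 2. Which antibody was used is unsettled, because the labels name 1 supplier in the sample fields and another in the protocol. A peak of 307 bp (90879072 to 90879378) ended 10.5 kb upstream of the Alb start, with a fold enrichment of 2.76, at or above 25.2% of the list. This is the side on which the Alb enhancer is known, although the enhancer's own position was not available in mm9 for comparison. A peak of 1076 bp (90948326 to 90949401) began 11.4 kb past the Afp end, with a fold enrichment of 2.72, at or above 23.5% of the list. In the RefSeq gene order of GRCm38 the next gene past Afp is Afm, which encodes afamin, another member of the albumin family, and whether that peak lies in it was not determined.

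H3K4me1, the mark most linked to enhancers, was not called anywhere in the window by any of 3 libraries, as in 57.4% of the tiles. The nearest H3K4me1 peaks to the Alb start lay 45.9, 81.2 and 77.4 kb upstream in replicates 1, 2 and 3. The 13.8 kb between the genes, where the Afp enhancers are known to lie, held no peak of any of the 11 libraries. How many stretches of that length in the genome hold none was not counted, so the empty stretch does not show the enhancers to be unmarked.

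The standing of the 7 peaks in their own lists depended on the measure. By fold enrichment they were at or above 12.4% to 35.1% of the list, by −log10 q 3.29% to 22.4% and by width 9.38% to 73.4%. By −log10 q every one of the 7 stood lower than by fold enrichment, with the H3K27ac peak at 18.8% and the H3K4me2 peaks at 10.8% upstream of Alb and 8.80% downstream of Afp. By width the H3K4me3 peak of replicate 2 over Alb stood at 73.4%, and the other 6 peaks were at or below 47.6%.

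**Figure D2:**
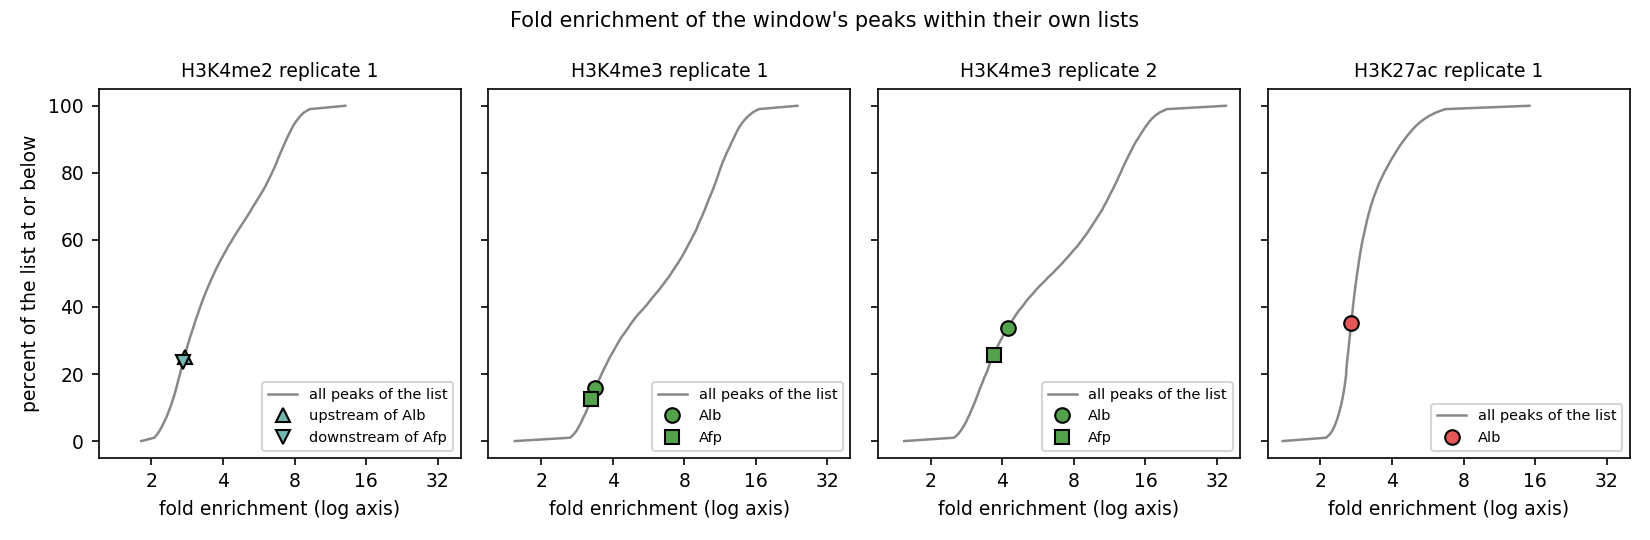
Fold enrichment of a peak (log axis) against the percentage of the library's own peaks at or below it, for the 4 libraries with a peak in the window; the grey line is the whole list and each symbol 1 peak. All 7 peaks lie on the lower part of the curve, between 12.4% and 35.1%.

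Proerythroblasts had no open site in the window in either library, and the surrounding stretch without an ATAC peak was 228 kb long in both. The ATAC peak nearest to the Alb start lay 93.9 kb upstream in both libraries, and the one nearest to the Afp start 104 kb downstream in both. None of the bases under liver H3K4me3 in the window lay in an ATAC peak, and 0 of the 2 H3K4me3 regions held one in replicate 1 or in replicate 2. Among all 13600 consensus H3K4me3 regions, 80.2% held an ATAC peak of replicate 1 and 86.5% one of replicate 2. An ATAC peak of either library was in 87.7% of them and in 64.2% of those in the lowest 25% of fold enrichment, a split added after the values of the locus were seen. Windows of this length without an ATAC peak in either library are common, at 64.8% of the tiles. Among the 8046 tiles with at least 1 consensus H3K4me3 region they were 6.46%. Tiles with at least 2 such regions and neither an ATAC nor an H3K4me1 peak in any library were 3 of 3425 (0.0876%). The locus has this state in its own window but is not one of the 3 tiles. Tiles were laid from the first base of each chromosome, and a tile border falls between the Alb and Afp regions. This tile class was drawn from the values of the locus and is a description. It was not matched for the low H3K4me3 fold enrichment of the locus.

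The H3K4me3 regions of both genes also came without a called peak of the other methylation marks, which most H3K4me3 regions of the genome meet. Neither H3K4me3 region met a peak of any H3K4me2 or H3K4me1 library, while 99.8% of all consensus H3K4me3 regions met an H3K4me2 peak and 95.9% an H3K4me1 peak. In the lowest 25% of fold enrichment the shares were 99.3% and 86.7%. Regions with no H3K4me1, H3K4me2 or ATAC peak in any library numbered 16 of 13600 (0.118%), and 2 of the 16 are those of Alb and Afp. Of the 3400 regions in the lowest 25%, 15 were of this kind (0.441%). By joined width, which at Alb is that of the replicate 2 peak, the Alb region was the widest of the 16. The Afp region was the thirteenth by width. The median width of the 16 was 1264 bp against 2021 bp for all regions. Alb and Afp, 27.6 kb apart, were the only neighbours among the 16 within 30 kb of each other. Of the 16, 2 met an H3K27ac peak, and Alb is 1 of them. This class was defined after the values of the locus were seen and is a description.

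**Figure D3:**
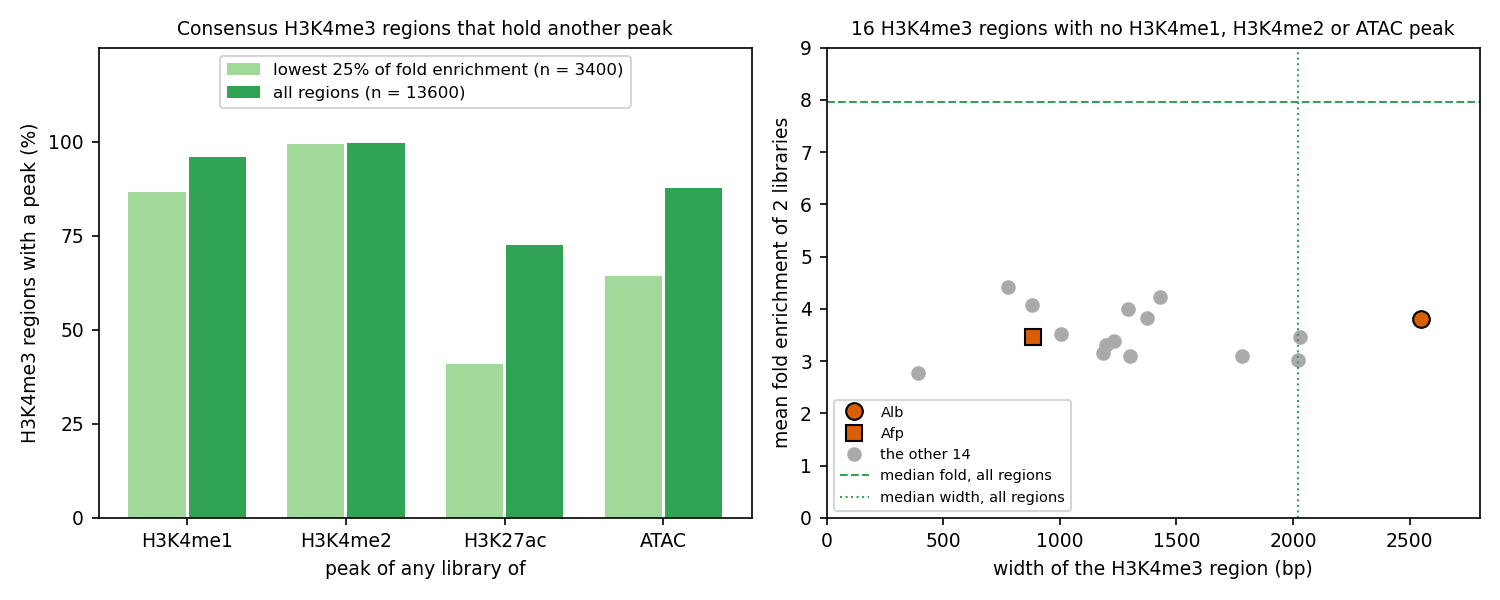
Left, percentage of consensus H3K4me3 regions that hold a peak of any library of another mark or of ATAC, for the lowest 25% of fold enrichment and for all regions; right, width in bp against mean fold enrichment of the 16 H3K4me3 regions that hold no H3K4me1, H3K4me2 or ATAC peak, with medians of all 13600 regions as lines. Alb, drawn at the width of its replicate 2 peak, is the widest of the 16. All 16 lie below the median fold enrichment of 7.97.

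By covered bases, only H3K4me3 was as dense in the locus as in the genome. It took 1.48% and 3.82% of the window in replicates 1 and 2 (2.65% ± 1.65, SD, n = 2) and 1.00% and 1.30% of the genome, so it was above its genome share in both libraries. H3K27ac took 0.964% and 0% of the window and 2.52% and 2.07% of the genome. H3K4me2 took 1.54% and 0% of the window and 3.31% and 3.58% of the genome. H3K4me1 took 0% of the window in 3 of 3 libraries and 3.56% to 5.09% of the genome, and ATAC 0% of the window in 2 of 2 and 0.378% and 0.554% of the genome. Marks cannot be ranked against each other by these shares, since antibodies differ and depths are unknown.

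The 11 lists held 7 peaks in the locus, against 38 in the window of equal length upstream and 12 in the one downstream. For scale, the same lists held 353812 peaks in all, and the genome was tiled into 29317 windows of 90 kb. Upstream, H3K4me1 took 15.2% ± 0.114 of bases (SD, n = 3), H3K4me2 13.4% ± 0.214, H3K4me3 4.87% ± 1.07, H3K27ac 7.73% ± 1.87 and ATAC 1.90% ± 0.985 (SD, n = 2 each). Downstream, H3K4me3 and H3K27ac had no peak, and H3K4me1 took 1.03% ± 0.523. The nearest consensus H3K4me3 region upstream of the locus (90791628 to 90796762) ended 93.1 kb before the Alb start and was marked in all 11 libraries, with H3K4me3 fold enrichments of 14.9 and 16.5 and with 2 and 3 ATAC peaks, in replicates 1 and 2. In the GRCm38 gene order the nearest protein-coding gene on that side is Ankrd17, and no gene was assigned to the region. On the other side the nearest such region began 423 kb past the Afp end.

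**Figure D4:**
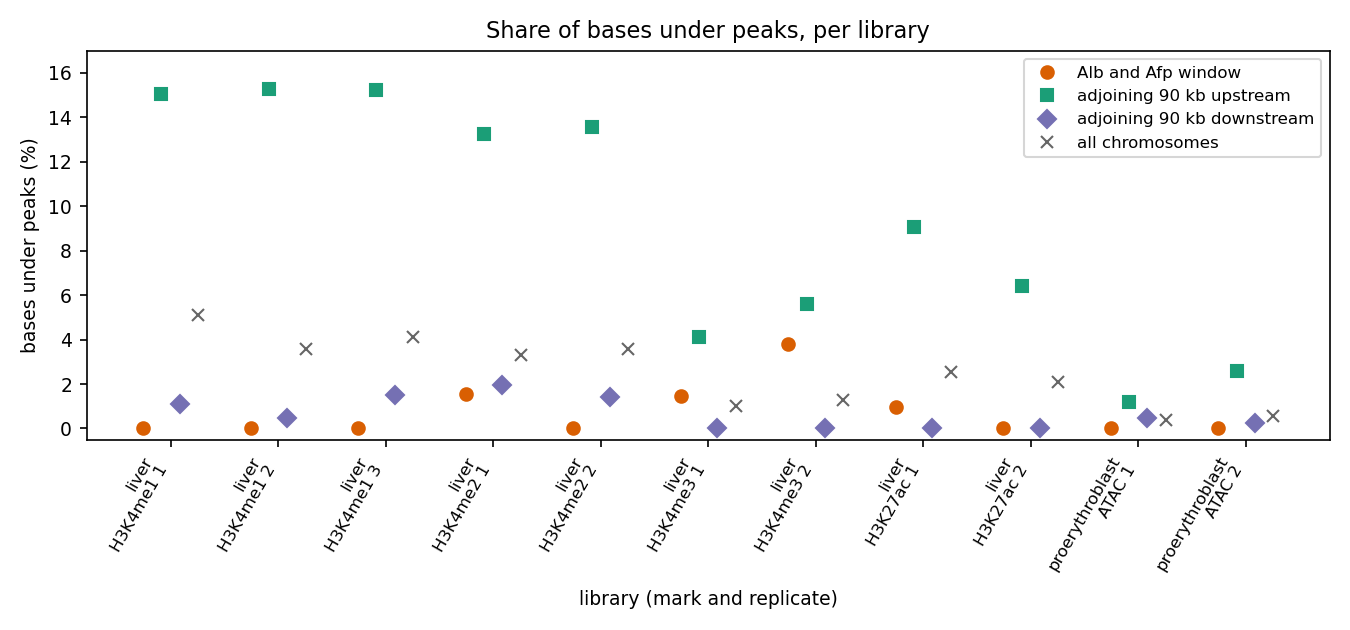
Percentage of bases under peaks in each library (x axis) for the Alb and Afp window, the windows of equal length on either side and all chromosomes. The window is at 0% in the 3 H3K4me1 and 2 ATAC libraries and above the genome's share in both H3K4me3 libraries.

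As a contrast, the consensus H3K27ac region of highest fold enrichment in the genome lies on chromosome 7 (110987488 to 111030867). With the H3K27ac lists left out, the locus held 0 to 2 peaks per library. The 90 kb around that region held 4 to 10, with 8 ATAC peaks in each proerythroblast library. The H3K4me3 fold enrichment at Alb was 3.38 in replicate 1 and 4.21 in replicate 2, and the highest within that region was 3.53 and 4.42 in the same libraries. That region was picked for its H3K27ac, so its acetylation is not compared. The contrast is with an extreme of the genome and is a description.

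Most peaks of the locus came from libraries with 1 tag in their titles, 3-18, whose meaning the labels do not give. H3K4me2 replicate 1, H3K4me3 replicate 2 and H3K27ac replicate 1 carry it, and these 3 libraries held 5 of the 7 peaks. Of the 2 libraries tagged 3-25, H3K4me2 replicate 2 had no peak and H3K4me3 replicate 1 had 2, and H3K27ac replicate 2, tagged 3-23, had none. H3K4me3 had 2 peaks under either of its tags. Lists also differed in length, with 42334 against 41765 peaks for H3K4me2, 16887 against 14031 for H3K4me3 and 28387 against 23735 for H3K27ac, the library tagged 3-18 being the longer each time. Those 3 libraries thus also held the larger part of all peaks of these marks, though by a smaller margin than 5 of 7. The part of the tag or of list length in the result was not tested.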

How the data were processed

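Peaks of 9 liver ChIP-seq libraries and 2 proerythroblast ATAC-seq libraries were analysed, and the input library was not used here. Reads were handled with Bowtie 1.0.1, Trimmomatic 0.32, MACS2 and SAMtools on mm9, per the submitters' processing notes, which list no roles; for settings and the control, the entry is not given in the sources used here. Every library has its own list, so the authors called peaks per library, in broad format for ChIP and narrow format for ATAC. The columns deposited with a peak are its fold enrichment ratio, −log10 p, −log10 q and score. In 353789 of 353812 deposited peaks the score was −log10 q times 10 without its decimals, and it was not used. ATAC lists also hold summits, not used here.

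Peaks on chromosomes 1 to 19, X and Y entered the genome values (7 others were set aside). The window and gene positions came from the rule that defines the locus, counted from 1, with the genes rounded to about 100 bp; no mm9 annotation was used, so the liver label was not checked against other marker genes. Peaks overlapped with at least 1 bp shared. Genome shares of covered bases refer to 2568 Mb, the span of peaks. Percentages of a list count peaks at or below the value. No test was made: 1 locus in lists without counts gives none. Members and comparisons were chosen with earlier results of these data known. All peaks of the window are named; outside it, regions follow the rule of highest H3K27ac fold enrichment, and the nearest H3K4me3 regions were added after seeing the data. Python 3.11.15 and numpy 2.4.6 were used, and interval functions were tested on simulated data. Alternatives were a −log10 q of at least 5, other overlaps, a wider window, shifted gene starts, ranks by width and by −log10 q, and leaving out libraries.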

Additional observations from a re-analysis of the deposited data

How the results depend on the processing

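With only peaks of −log10 q of at least 5, the window was empty in every library, so H3K4me3 covered 0% of it and H3K4me2, H3K4me3 and H3K27ac had 0 peaks per library; the locus rests on peaks near the caller's threshold. Leaving out 1 library at a time gave 0 to 2 H3K4me2 peaks per library (main value 1) and 0 to 1 H3K27ac peaks (main value 0.5), while H3K4me3 stayed at 2. Without the libraries tagged 3-18, an alternative chosen after seeing the data, the counts were 0 for H3K4me2, 2 for H3K4me3 and 0 for H3K27ac. Widening the window by 30 kb on each side gave H3K4me1 a cover of 0.0809% and left ATAC at 0%. With the stricter threshold the genome shares of consensus regions with an ATAC peak, averaged over both ATAC libraries, were 75.8% in place of 46.5% for H3K4me1, 67.0% in place of 44.9% for H3K4me2, 92.1% in place of 83.3% for H3K4me3 and 94.8% in place of 62.1% for H3K27ac; for H3K4me3 the lowest 25% of fold enrichment gave 54.8%. Moving the gene starts by 500 bp downstream or upstream changed the mean distance to H3K4me3 from 207.5 to 0 or 707.5 bp at Alb and from 515 to 51.5 or 1015 bp at Afp, and that to ATAC to 94407.5 or 93407.5 bp and to 103876 or 104876 bp, as the shift itself implies. The causes of the other changes were not tested. Of 100 values under alternatives, 64 stayed within the replicate spread or 1.5 times the count. This share does not measure stability. Main values of 0 could not change under a stricter threshold or with a library left out, and they are among the 64. The fall of H3K4me2 and H3K27ac cover to 0% at the stricter threshold is also among them, since the SD of each exceeded its mean. Ranking the window's peaks by width or −log10 q in place of fold enrichment moved 12 of 14 percentiles, to 9.38% to 73.4% by width and 3.29% to 22.4% by −log10 q. With the stricter threshold no H3K4me3 region was left in the window, so its ATAC share there has no value, and H3K4me1, H3K4me2 and H3K27ac had no consensus region there at all. No paired analysis was possible because no result comes from a test that could take a replicate block, and equal replicate numbers do not mark the same title tag; counts by tag stand with the results.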

Other observations

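The other 14 consensus H3K4me3 regions without an H3K4me1, H3K4me2 or ATAC peak were spread over chromosomes 1, 2, 3, 5, 6, 9, 11, 12, 16, 17 and 18 (mm9). By mean fold enrichment the first was on chromosome 12 from 60196714 to 60197490, at 4.43, followed by chromosome 6 from 3937432 to 3938862, at 4.22, chromosome 5 from 66444744 to 66445625, at 4.07, chromosome 3 from 129539637 to 129540930, at 4.01, and chromosome 17 from 12571533 to 12572906, at 3.83. Alb ranked sixth and Afp eighth. Besides Alb, 2 of the 16 were wider than 2 kb, on chromosome 18 from 65403986 to 65406014 and on chromosome 2 from 163373115 to 163375133. The only one besides Alb with an H3K27ac peak was on chromosome 9 from 3006649 to 3007040. It was 392 bp wide and had the lowest mean fold enrichment of the 16, at 2.77. No filter for repeat regions was applied here. No gene was assigned to these regions.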
